A study of Ostrinia furnacalis with 30 samples.

Results

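The genes described here are the UDP-glycosyltransferases (UGTs) and glutathione S-transferases (GSTs) of the Asian corn borer, Ostrinia furnacalis, a moth whose larvae bore into maize. They were chosen by name alone: an annotated gene model was a member where its description held UDP-glucuronosyltransferase, UDP-glucosyltransferase, UDP-glycosyltransferase or glutathione S-transferase. This gave 53 of 17284 annotated gene models, out of 20852 gene models in all. Of these 53, 31 were UGTs, 3 were microsomal GSTs and 19 were other GSTs. RNA of wild-type insects was sequenced in 30 libraries, 3 for each of 6 stages of the whole insect and 3 for each of 4 tissues cut from 3rd instar larvae. The stages were the embryo (labelled Egg, collected soon after laying), the newly hatched 1st instar, the middle 3rd instar, the mature 5th instar, the pupa and the adult, and the tissues were midgut, fat body, silk gland and hemolymph. Larvae ate an artificial diet, so no plant compound or insecticide was tested. Each library was a pool of several animals, and pupae and adults were females and males mixed in equal parts. Nothing states that the pools of a group came from separate rearings, so p-values measure the spread between these pools.

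UGTs join a sugar to small lipophilic molecules, which makes them easier to excrete, and insect UGTs mainly take the sugar from UDP-glucose. GSTs join the tripeptide glutathione to reactive or oxidised molecules. Cytosolic GSTs fall into classes such as delta, epsilon, omega, sigma, theta and zeta, whereas microsomal GSTs are small membrane proteins of another fold. Both families are known for the handling of plant toxins and insecticides in the midgut and fat body of caterpillars. Names such as 2B20-like were given by likeness to enzymes of other animals, many of them vertebrate, and say little about the substrate in this moth. No protein or promoter sequence was used here.

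The libraries held between 10908503 and 17774377 recovered fragments. The deposited table names no unit, and its values were read as FPKM, that is, fragments per kilobase of gene and per unit of library size. A difference is a log2 fold change of FPKM + 1, which understates the change of low genes. A gene was called where limma gave an adjusted p under 0.05 and a fold change of 1 or more, up or down, on the log2 scale. The deposited scale brings the typical gene to a similar level in every library. Division by recovered fragments instead shifted the median log2 fold change of all genes by between -1.47 (silk gland over hemolymph) and 0.77 (midgut over silk gland) in the 11 comparisons of tissues and of neighbouring stages, so splits of calls are also given on that scale where they moved by over 10 percentage points. The tissue labels were checked against marker lists. All 7 hemolymph markers were highest in hemolymph, where they summed to between 3613 and 6148 FPKM, against at most 14.53 FPKM in a library of another tissue. The fat body list was highest in fat body for 4 of 7 genes and the silk gland list in silk gland for 4 of 7. These counts take in genes at very low levels. Among them were a vicilin-like gene (LOC114362344) at 0.283 FPKM in fat body and a fibroin heavy chain-like gene (LOC114360623) at 0.0397 FPKM in silk gland. Leading the lists, arylphorin alpha (LOC114359093) reached 56104, 95154 and 62374 FPKM in the fat body libraries and fibroin light chain (LOC114360339) 124151, 144541 and 114884 FPKM in the silk gland libraries. Both lists hold fibrohexamerin, a silk protein at a mean of 15963 FPKM in silk gland, with which the fat body list also summed to between 14910 and 18420 FPKM there. The midgut list was counted highest in midgut for 18 of 29 genes, but that count takes in genes listed at 0 in every tissue. These were LOC114359765, LOC114350793, LOC114350292 and LOC114362805. Others of the 18 were low in midgut, such as LOC114352546 at a mean of 0.165 FPKM. The midgut list also summed to between 2093 and 2687 FPKM in silk gland. An antichymotrypsin-2-like gene and a chymotrypsin inhibitor, matched by the letters of their names, led it there with means of 1471 and 762 FPKM. In whole pools and dissected tissues alike, fewer cells of a type and less RNA per cell cannot be told apart.

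Each of the 53 genes had at least 1 fragment somewhere, 51 reached a mean of at least 1 FPKM in some stage or tissue, and 50 passed the low-value filter of at least 1 comparison. The families differed in where they were highest. Of the 31 UGTs, 15 had their highest tissue mean in fat body and 13 in midgut, with 1 each in silk gland and hemolymph and 1 listed at 0 in every tissue library. Of the 19 other GSTs, 7 were highest in midgut, 5 in hemolymph, 4 in silk gland and 3 in fat body. By stage, 25 of 31 UGTs and 15 of 22 GSTs were highest in a larval instar. These are orders of means on the deposited scale, and many neighbours in them lie within each other's spread. The counts by stage were not repeated on the scale of recovered fragments or over all genes. Scaling by recovered fragments shifted the median of all genes by -1.10 in the 1st instar over the embryo. In pupae over the 5th instar the shift was 0.75.

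**Figure D1:**
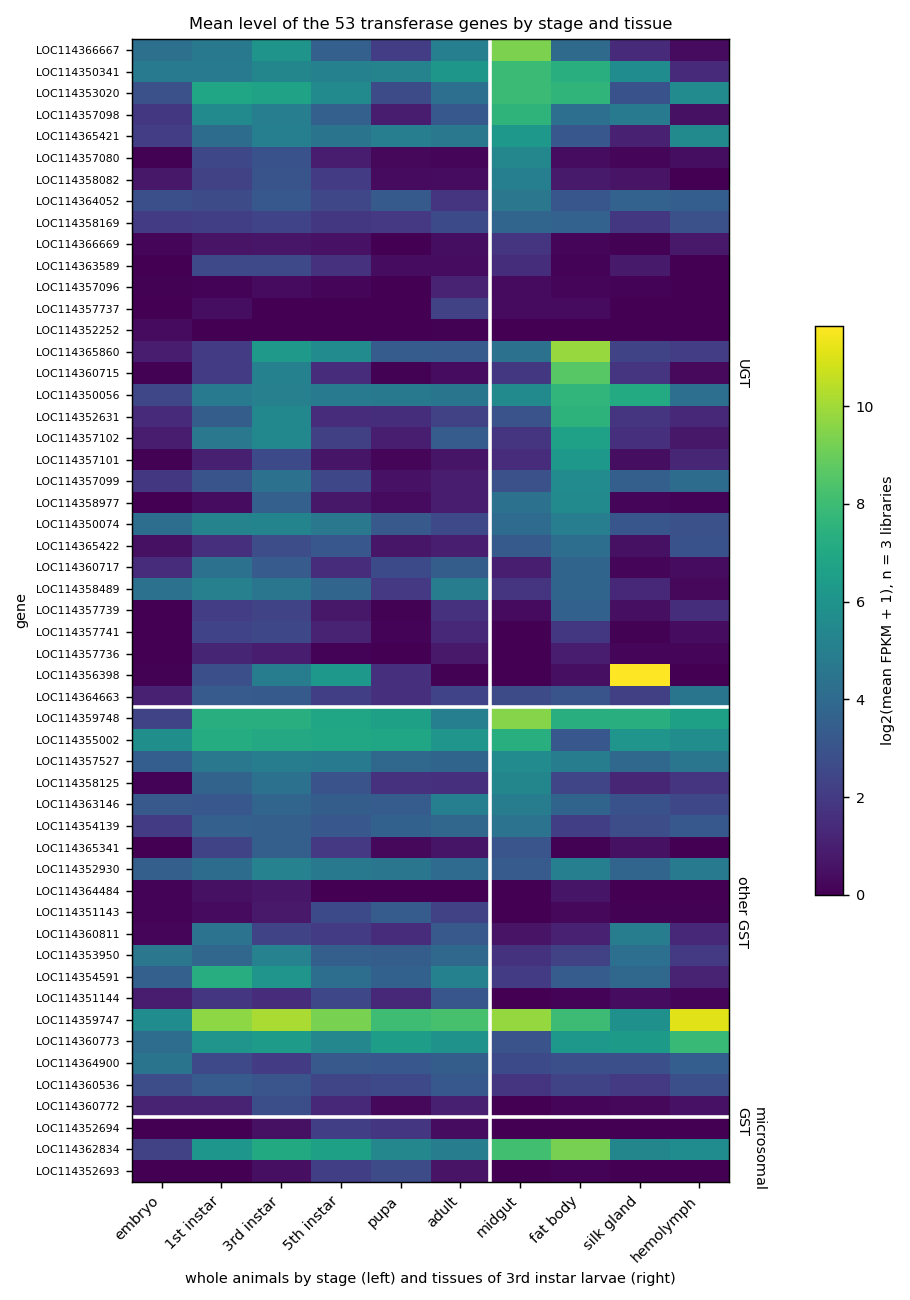
Mean level of each of the 53 genes, as log2(mean FPKM + 1) over 3 libraries (colour), in 6 stages of whole animals (left) and 4 tissues of 3rd instar larvae (right). Rows are grouped into 31 UGTs, 19 other GSTs and 3 microsomal GSTs and ordered by their highest tissue. The brightest fields are a UGT in silk gland (LOC114356398) and a GST in hemolymph (LOC114359747). That GST in 3rd instar larvae and a UGT in fat body (LOC114365860) follow. In midgut the GSTs LOC114359747 and LOC114359748 are brighter than the leading UGT, LOC114366667.

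A single UGT made up most of the UGT signal of the silk gland. LOC114356398 (UDP-glucuronosyltransferase 2B20-like; scaffold NW_021133042.1 of genome build ASM419383v1, 243825 to 247642, plus strand) was at 3062, 2056 and 4448 FPKM in the 3 silk gland libraries. It was at 0, 0 and 0.0768 FPKM in midgut, 0.412, 0.416 and 0.292 in fat body and 0, 0.0227 and 0.0229 in hemolymph. No library of another tissue came near the lowest silk gland library. The smallest of its 3 tissue differences was a log2 fold change of 11.11 (SE 0.30, adjusted p = 4.93e-07), against fat body. Behind these values stood 28605, 19728 and 41139 fragments in silk gland and at most 7 in a library of another tissue. This gene held 92.05% of the summed UGT level in silk gland, where the second UGT, LOC114350056, averaged 137 FPKM.

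In whole animals LOC114356398 varied widely between pools of the same stage. The 1st instar pools were at 1.57, 13.5 and 3.52 FPKM, the 3rd instar pools at 8.57, 38.9 and 38.4 FPKM and the 5th instar pools at 25.1, 10.9 and 185 FPKM. Fibroin light chain, the small subunit of the silk core protein, stood at 217, 1328 and 305 FPKM in these 1st instar pools, 1333, 2663 and 1148 FPKM in these 3rd instar pools and 2116, 484 and 8642 FPKM in these 5th instar pools. The 5th instar library that was highest for the one was highest for the other, as was the 1st instar library, while in the 3rd instar libraries 2 and 3 had near equal UGT levels and unequal fibroin levels. The part of silk gland content in this spread was not tested. Pupae, at 1.10, 2.59 and 2.56 FPKM, lay below every 5th instar pool, with a log2 fold change of -3.69 (SE 0.95, adjusted p = 0.0271). The adjusted p was 0.0549 with limma-voom, and 0.0878, 0.0742 and 0.0669 without pupa replicates 1, 2 and 3.

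The silk gland also had 2 GSTs that were higher than in each other tissue, which with the UGT made 3 of 31 members tested against all 3 others, where 9.4% of all genes tested were so called. LOC114360811 (GST 1-1-like) was at 22.1, 42.1 and 20.6 FPKM in silk gland, against 0.459, 0.638 and 0.547 in midgut, 1.41, 1.88 and 0 in fat body and 1.05, 1.62 and 1.81 in hemolymph, without overlap. Its smallest difference was a log2 fold change of 3.49 (SE 0.30, adjusted p = 4.99e-05), against hemolymph. LOC114353950 (GST 1-1), at 25.3, 10.8 and 17.8 FPKM in silk gland, also lay above all other tissue libraries, the highest of which was 4.51 FPKM in midgut. It overlaps a neighbouring gene on the other strand by 114 bases, and the sources used here do not say whether counting used strand. Lower in silk gland than in each other tissue were 4 of the 31 members, 3 of them UGTs, against 2.52% of all genes. The set held 8, these 4 among them, when scaled by recovered fragments. One was LOC114353020 (UDP-glucuronosyltransferase 1-7C-like), at 6.40, 6.48 and 6.72 FPKM in silk gland and at least 36.9 FPKM in each library of the other tissues. Another was LOC114365421 (2B2-like), at 1.37, 0.614 and 1.27 FPKM in silk gland, against 69.4, 88.8 and 59.3 in midgut, 11.2, 6.36 and 6.08 in fat body and 48.1, 42.7 and 48.2 in hemolymph.

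**Figure D2:**
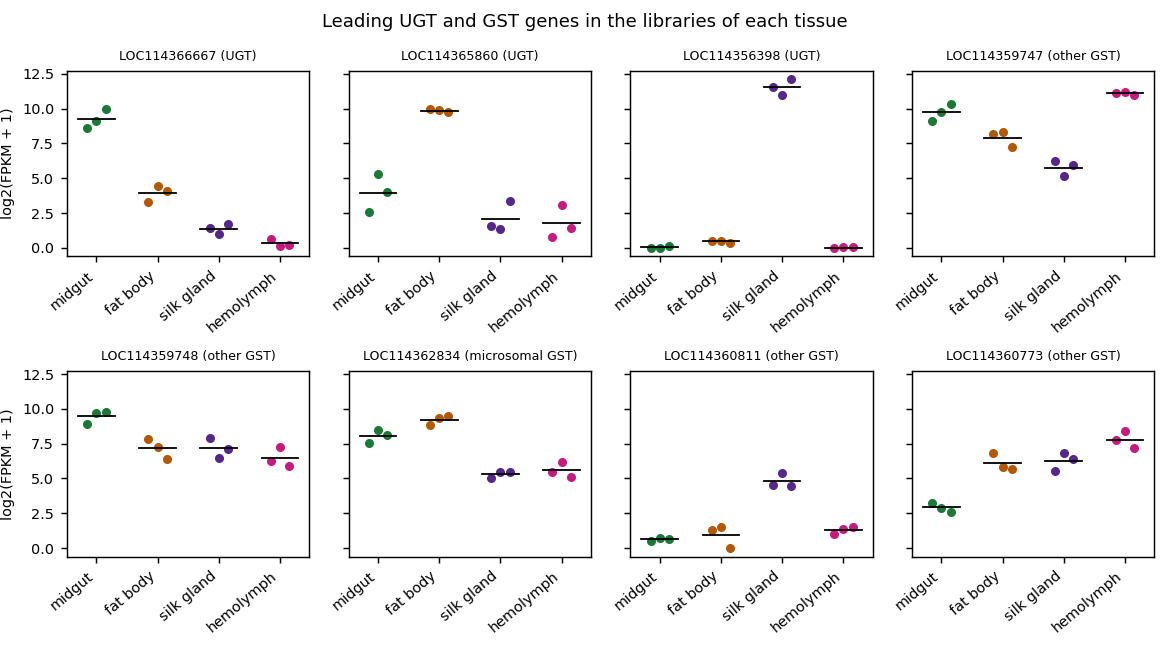
Levels of 8 leading genes in each tissue library, as log2(FPKM + 1), with 1 point per library and a line at the mean of the 3. The columns show, left to right, pairs of genes highest in the midgut, the fat body, the silk gland and the hemolymph. LOC114356398 is between 2056 and 4448 FPKM in silk gland and at most 0.416 FPKM in the other 9 libraries.

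In the midgut 10 of 34 members tested against all other tissues were higher than in each of them, against 12.3% of all genes, and they held 4 UGTs and 6 GSTs. The leading UGT was LOC114366667 (UDP-glucuronosyltransferase 2B1-like; NW_021130896.1, 547013 to 554419, plus strand), at 388, 560.3 and 1017 FPKM in midgut. It was at 8.80, 20.2 and 16.3 FPKM in fat body, 1.64, 0.974 and 2.29 in silk gland and 0.560, 0.0966 and 0.136 in hemolymph. Every midgut library was above every other library, and the smallest difference was a log2 fold change of 5.3 (SE 0.42, adjusted p = 4.69e-05), against fat body. LOC114357080 (2B2-like) and LOC114358082 (3A1-like) followed at lower levels, with 16.4, 32.5 and 73.1 and 34.7, 31.98 and 29.4 FPKM in midgut. Outside midgut the highest value of either was 2.0 FPKM, in a fat body library. LOC114350341 (2A3-like), the second UGT of the midgut at 234, 285 and 222 FPKM, was shared with fat body, at 181, 91.1 and 193 FPKM, and those groups differed by a log2 fold change of 0.73 (SE 0.32, adjusted p = 0.105), which was 1.43 (adjusted p = 0.00584) when scaled by recovered fragments. It was nearly silent in hemolymph, at 1.33, 1.58 and 2.17 FPKM.

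Among the GSTs of the midgut, LOC114359748 (GST 1-1-like) was at 491, 821 and 889 FPKM, against 226, 155 and 85.2 in fat body, 244, 89.5 and 136 in silk gland and 76.3, 154 and 58.6 in hemolymph. Its smallest difference was a log2 fold change of 2.3 (SE 0.40, adjusted p = 0.00283), against fat body. The omega class member LOC114358125 was at 27.4, 53.6 and 37.3 FPKM in midgut and at most 5.44 FPKM in the other tissue libraries, with a log2 fold change of 2.88 (SE 0.29, adjusted p = 0.000163), against fat body. In other animals omega GSTs are known for reducing oxidised small molecules rather than for conjugation. LOC114355002 (GST 2-like) was at 124, 187 and 159.6 FPKM in midgut, 68.2, 69.6 and 63.9 in silk gland, 57.4, 42.8 and 54.7 in hemolymph and 13.4, 4.34 and 6.31 in fat body. It was the single member, of 35 tested, that was lower in fat body than in each other tissue, against 1.38% of all genes. The single member of 34 that was lower in midgut than in each other tissue, against 2.03% of all genes, was LOC114360773, described with the hemolymph. For 2 of the 10 higher in midgut the call was less firm. LOC114363146 against fat body had a log2 fold change of 1.20 (adjusted p = 0.0418), and without midgut replicate 1 or 2 or fat body replicate 2 or 3 its adjusted p was 0.0836, 0.123, 0.0741 and 0.123. LOC114354139 (GST 1-like), named after its values were seen, had 1.15 against hemolymph, which was 0.83 without midgut replicate 2 and 0.32 on the scale of recovered fragments.

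In the fat body 9 of 35 members tested against all other tissues were higher than in each of them, against 10.3% of all genes. Of these 9, 8 were UGTs and the other one was a microsomal GST. LOC114365860 (UDP-glucuronosyltransferase 1-6-like; NW_021137903.1, 319732 to 326612, minus strand) was at 1014, 930.5 and 845 FPKM in fat body, against 4.85, 38.6 and 15.4 in midgut, 1.90, 1.54 and 9.48 in silk gland and 0.722, 7.55 and 1.73 in hemolymph. Its smallest difference was a log2 fold change of 5.9 (SE 0.62, adjusted p = 0.000203), against midgut. This gene model shares 6881 bases with an N-alpha-acetyltransferase 40 gene on the other strand, which reached 64.74 FPKM in a fat body library, so a part of its reads is uncertain. LOC114360715 was at 514, 363 and 292 FPKM in fat body and at most 6.55 FPKM in the other tissue libraries, with a log2 fold change of 6.95 (SE 0.43, adjusted p = 1.94e-05), against silk gland. LOC114352631 (2B15-like), at 191, 208 and 157 FPKM, and LOC114357102 (2B15-like), at 108, 136 and 57.97 FPKM, likewise lay above all libraries of the other tissues. In contrast to these steep UGTs, LOC114350056 (2B1-like) was at 156, 253 and 198 FPKM in fat body and 111, 144 and 156 in silk gland, with a log2 fold change of 0.54 (SE 0.25, adjusted p = 0.134), and those groups overlapped.

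The microsomal GST LOC114362834 (NW_021137028.1, 37334 to 38010, minus strand) was at 467, 639.8 and 713 FPKM in fat body. It was at 189, 354 and 275 FPKM in midgut, 32.5, 43.5 and 43.4 in silk gland and 44.2, 72.5 and 34.04 in hemolymph. Fat body and midgut libraries stood well above the others and did not overlap each other. The difference of fat body from midgut was a log2 fold change of 1.17 (SE 0.29, adjusted p = 0.0145). It was 0.93 (adjusted p = 0.057) without midgut replicate 1, 1.05 (adjusted p = 0.0558) without fat body replicate 3 and 0.47 (adjusted p = 0.156) on the scale of recovered fragments. In contrast to this gene, the 19 other GSTs together were lower in fat body, where their summed level averaged 596 ± 176 FPKM (SD, n = 3), and in silk gland, at 472 ± 55.5 FPKM, against 1957 ± 585 FPKM in midgut and 2665 ± 309 FPKM in hemolymph. Scaled by recovered fragments, these sums averaged 329 in fat body, 220 in silk gland, 1780 in midgut and 4529 in hemolymph.

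In hemolymph one GST was at the highest level of any GST in any group. LOC114359747 (GST 1-like; NW_021134893.1, 186333 to 200015, plus strand) was at 2225, 2352 and 2012 FPKM in hemolymph, and made up 82.41% of the summed level of the 19 other GSTs there. It was at 551, 863 and 1260.5 FPKM in midgut, 289.8, 314 and 154 in fat body and 75.2, 34.1 and 59.2 in silk gland. The 4 tissues did not overlap, and each neighbouring pair in the order hemolymph, midgut, fat body and silk gland was called. The hemolymph difference from midgut was a log2 fold change of 1.38 (SE 0.29, adjusted p = 0.00411). LOC114360773 (GST 1-like) was also higher in hemolymph than elsewhere, at 211, 342 and 146 FPKM, against 46.2, 112 and 84.8 in silk gland, 113, 56.4 and 51.1 in fat body and 8.63, 6.46 and 5.19 in midgut. Against silk gland its difference was a log2 fold change of 1.52 (SE 0.39, adjusted p = 0.013), and 1.20 (adjusted p = 0.0533) without hemolymph replicate 2. These were 2 of 29 members tested against all other tissues, where 8.92% of all genes were called. The hemolymph set held 6 members when scaled by recovered fragments, and 1 without hemolymph replicate 2. UGTs were low in hemolymph, where their summed level averaged 193 ± 30.1 FPKM (SD, n = 3), against 1663 ± 602 in midgut, 2484 ± 185 in fat body and 3464 ± 1221 in silk gland. Scaled by recovered fragments, the UGT sums averaged 328 in hemolymph, 1530 in midgut, 1380 in fat body and 1605 in silk gland. Lower in hemolymph than in each other tissue were 4 of the 29 members, 3 UGTs and 1 GST, against 5.28% of all genes, and LOC114350341 was the steepest of them. On the scale of recovered fragments LOC114350341 and LOC114357098 remained of the 4, and LOC114350056 and LOC114354591 did not.

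LOC114359747 and LOC114359748 lie side by side within 17188 bases, on opposite strands, and differed in their highest tissue. LOC114359747 had the higher mean of the pair in hemolymph, with 2196 and 96.4 FPKM, and LOC114359748 in silk gland, with 56.2 for LOC114359747 and 156 FPKM for itself. The other GST pairs that share a scaffold were LOC114360773 with LOC114360772 (which averaged at most 0.464 FPKM in a tissue), LOC114351143 with LOC114351144, and the microsomal LOC114352693 with LOC114352694. No scaffold carried more than 2 GSTs.

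Of the 31 UGTs 18 shared a scaffold with another member, as did 8 of the 22 GSTs, on 10 of the 37 scaffolds that carry a member. The largest run held 6 UGTs within 52022 bases of scaffold NW_021133261.1 (1350850 to 1402871). Along it, LOC114357080, LOC114357098 and LOC114357096 were highest in midgut and the next 3, LOC114357099, LOC114357102 and LOC114357101, were highest in fat body. LOC114357098 (2B15-like) was at 178, 196 and 201 FPKM in midgut, against 12.7, 22.6 and 18.97 in fat body, 24.2, 32.8 and 23.4 in silk gland and 0.911, 0.339 and 0.107 in hemolymph. At the other end, LOC114357101 (2B15-like) was at 50.9, 97.8 and 66.8 FPKM in fat body, against 0.938, 1.69 and 2.75 in midgut, 0.388, 0 and 0.686 in silk gland and 0.864, 0.392 and 2.96 in hemolymph. Both differed without overlap from every other tissue, with smallest differences of 2.80 (adjusted p = 1.31e-05) for LOC114357098 and 4.71 (adjusted p = 2.58e-05) for LOC114357101. LOC114357096 did not pass 1.66 FPKM in any library, so its highest tissue rests on few fragments. This gene also shares 207 bases with LOC114357098 on the other strand, and whether counting used strand was not known. LOC114357099, at 44.7, 44.6 and 55.6 FPKM in fat body and 17.4, 18.1 and 13.8 in hemolymph, differed by a log2 fold change of 1.5 (SE 0.20, adjusted p = 0.00055), and by -0.05 (adjusted p = 0.83) when scaled by recovered fragments.

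**Figure D3:**
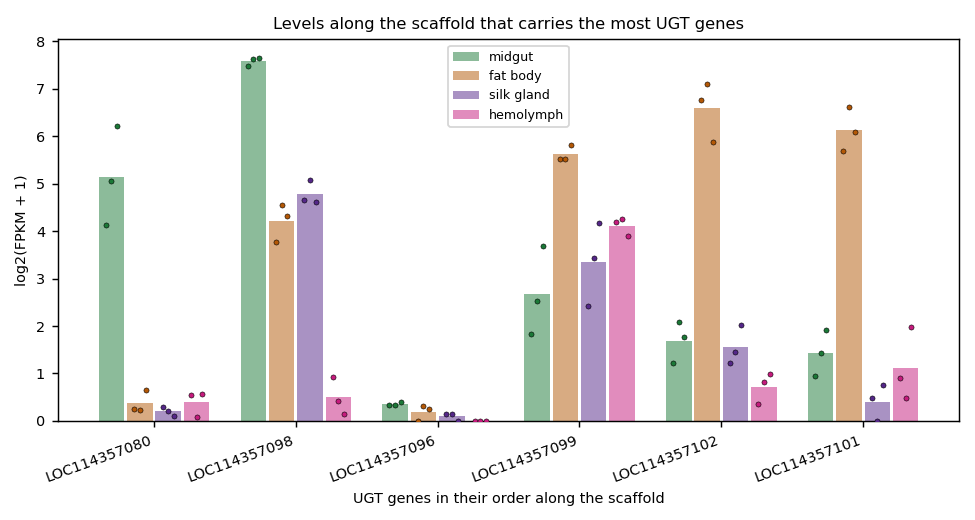
Levels of the 6 UGT genes on scaffold NW_021133261.1 in the 4 tissues, in their order along the scaffold, as log2(FPKM + 1). Bars are the mean of 3 libraries, points are the libraries. The first 3 genes are highest in midgut and the last 3 in fat body, but the third, LOC114357096, is at a midgut mean of only 0.281 FPKM.

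A second run, on scaffold NW_021133578.1 (26458 to 48703), held 4 UGTs at lower levels, of which 3 had their highest tissue mean in fat body. The fourth, LOC114357737 (2B4-like), was highest in midgut among the tissues, at a mean of only 0.269 FPKM, and its highest stage was the adult, at 3.91 FPKM. Of the 10 shared scaffolds, 4 had 1 highest tissue common to their members. Neighbouring UGTs can be near-identical copies, and counting could then split their reads wrongly, so the levels of neighbours are less certain than those of lone genes. Overlaps with another gene model of the table were found for 11 of the 53 members.

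Counted over all members, fat body and midgut had more members higher than lower against silk gland and hemolymph. In fat body the UGTs made up most of them. Fat body over hemolymph gave 19 members higher and 5 lower of 36, with a median log2 fold change of 1.42 against -0.02 for all genes, of which 39.8% were called, 23.3% higher and 16.5% lower. These were 13 and 12 when scaled by recovered fragments. Fat body over silk gland gave 20 higher and 4 lower of 37, with a median of 1.54 against -0.02, where 33.5% of all genes were called, 18.4% higher and 15.1% lower. Of the UGTs, 16 were higher and 1 lower of 21 tested against hemolymph, and 16 were higher and 1 lower of 22 against silk gland. The GSTs of both kinds gave 3 higher and 4 lower of 15, and 4 higher and 3 lower of 15, in the same comparisons.

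Midgut over hemolymph gave 22 higher and 5 lower of 37, with a median of 1.15 against 0.03 for all genes, of which 43.2% were called, 25.3% higher and 17.9% lower. The split was 12 and 9 when scaled by recovered fragments. Midgut over silk gland gave 19 higher and 6 lower of 37, with a median of 1.68 against 0.03, where 37.4% were called, 20.8% higher and 16.6% lower. Of the UGTs, 13 were higher and 1 lower of 21 against hemolymph, and 10 were higher and 2 lower of 21 against silk gland. The GSTs of both kinds gave 9 higher and 4 lower of 16 against each of these tissues. The tissues best known for detoxification split the members about evenly. Midgut over fat body gave 13 higher and 14 lower of 38, with a median of -0.42 against 0.04, where 34.3% were called, 18.3% higher and 16% lower. Within that split 6 UGTs were higher and 10 lower, whereas 7 of the other GSTs were higher and 3 lower. Silk gland over hemolymph gave 8 higher and 5 lower of 31, with a median of -0.17 against -0.01, where 40.2% were called, 21.3% higher and 18.8% lower. Scaled by recovered fragments, it gave 6 higher and 21 lower. The 6 comparisons share libraries and are not independent.

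Genes that act around the transferases were taken from 4 lists: UDP-sugar supply, glutathione supply and use, conjugate export and regulators. Only the lists of UDP-sugar and of glutathione concern the cosubstrates. Of the 6 genes of UDP-sugar supply, 4 were higher and 1 lower in fat body over hemolymph, against 23.3% and 16.5% of all genes, and 4 of 5 tested were higher in fat body over silk gland, against 18.4% of all genes. UTP--glucose-1-phosphate uridylyltransferase (LOC114352949), the enzyme that makes UDP-glucose, averaged 76.4 FPKM in fat body, against 12.9 in midgut, 4.22 in silk gland and 9.14 in hemolymph, with a smallest log2 fold change of 2.75 (adjusted p = 0.00157). Both phosphoglucomutases, which supply its substrate, were called in the same direction: LOC114363734 averaged 55.2 FPKM and LOC114360473 51.6 FPKM in fat body. A UDP-glucose 4-epimerase-like gene (LOC114365232), whose enzyme interconverts UDP-glucose and UDP-galactose, was instead highest in midgut. It averaged 397 FPKM there, against 11.0 in fat body, 9.74 in silk gland and 0.144 in hemolymph. Another UDP-glucose 4-epimerase of the list, LOC114359213 (named after its values were seen), went the other way. It averaged 2.85 FPKM in midgut, against 25.3 in fat body, 8.71 in silk gland and 11.0 in hemolymph. This gene was lower in midgut than in each other tissue, with a smallest log2 fold change of -1.33 (limma adjusted p = 0.00292), against silk gland.

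Of the 13 genes matched for glutathione supply and use, 11 could be tested in midgut, 11 in fat body and 12 in silk gland. In midgut 1 was higher than in each other tissue, against 12.3% of all genes. In fat body 2 were, against 10.3%, and in silk gland 2, against 9.4%. The midgut gene was glutamate--cysteine ligase (LOC114363540), the first enzyme of glutathione synthesis. It averaged 33.0 FPKM in midgut, against 9.55 in fat body, 8.11 in silk gland and 6.78 in hemolymph, with a smallest log2 fold change of 1.64 (adjusted p = 0.00282). Glutathione hydrolases, which begin the breakdown of glutathione conjugates, led elsewhere. LOC114355934 averaged 285 FPKM in fat body, against 19.4 in midgut, 23.3 in silk gland and 0.338 in hemolymph. LOC114356874 and LOC114362167 were highest in silk gland, at 12.3 and 5.70 FPKM. The fourth gene of this list with such a call outside midgut, LOC114356663, is an S-formylglutathione hydrolase, an enzyme of formaldehyde removal that the list matched by letters, at 149.5 FPKM in fat body.

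Of the 12 conjugate exporters (multidrug resistance-associated and other sub-family C transporters), 9 could be tested in midgut and 9 in silk gland against all other tissues. In midgut 3 of them were higher than in each other tissue, against 12.3% of all genes, and 1 was lower, against 2.03%, and in silk gland 2 were higher, against 9.4%. LOC114352739 (4-like) averaged 80.8 FPKM in midgut and at most 0.178 FPKM in another tissue, and its neighbour in number LOC114352737 averaged 81.1 FPKM in midgut and at most 2.56 FPKM elsewhere. LOC114363899 (multidrug resistance-associated protein 1) was broader, at 51.9 FPKM in midgut, 25.2 in fat body, 15.8 in silk gland and 21.1 in hemolymph. The exporter lower in midgut, LOC114352168, averaged 3.19 FPKM there, against 9.69 in fat body, 25.5 in silk gland and 12.4 in hemolymph. In silk gland, LOC114354289 (4-like) averaged 23.9 FPKM and LOC114353172, a sulfonylurea receptor-like member that need not export conjugates, 19.3 FPKM. Of the 3 regulators matched (cap'n'collar, Keap1 and MafK), 2 were higher in fat body than in hemolymph, where 23.3% of all genes were, and 1 was higher in midgut than in hemolymph, where 25.3% were. Cap'n'collar (LOC114359292), the insect counterpart of Nrf2, averaged 40.1 FPKM in midgut, 24.2 in fat body, 12.8 in silk gland and 7.96 in hemolymph.

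Over development, members were low in embryos and high in feeding larvae. In the 1st instar over the embryo 30 members were higher and 1 lower of 42 tested, with a median log2 fold change of 1.97 against 0.14 for all genes, of which 59.3% were called, 34.6% higher and 24.7% lower. With scaling by recovered fragments these were 21 and 5. Of 24 UGTs tested with limma-trend, 19 were higher and 0 lower (20 and 0 at an unadjusted p under 0.05, and 19 and 0 with limma-voom). The summed UGT level averaged 119 FPKM in embryos, 442 in 1st instar larvae, 691 in 3rd instar larvae, 349 in 5th instar larvae, 149 in pupae and 266 in adults. The summed level of the 19 other GSTs averaged 221 FPKM in embryos, 1454 in 1st instar larvae, 1762 in 3rd instar larvae, 1042 in 5th instar larvae, 673 in pupae and 623 in adults. Both sums were lowest in embryos and highest in the 3rd instar. When scaled by recovered fragments, the UGT sum averaged 284 in embryos, 443 in 1st instar larvae, 528 in 3rd instar larvae, 303 in 5th instar larvae, 248 in pupae and 267 in adults, so that pupae were lowest. The GST sum on that scale was lowest in embryos, at 526, and highest in the 1st instar, at 1449.

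**Figure D4:**
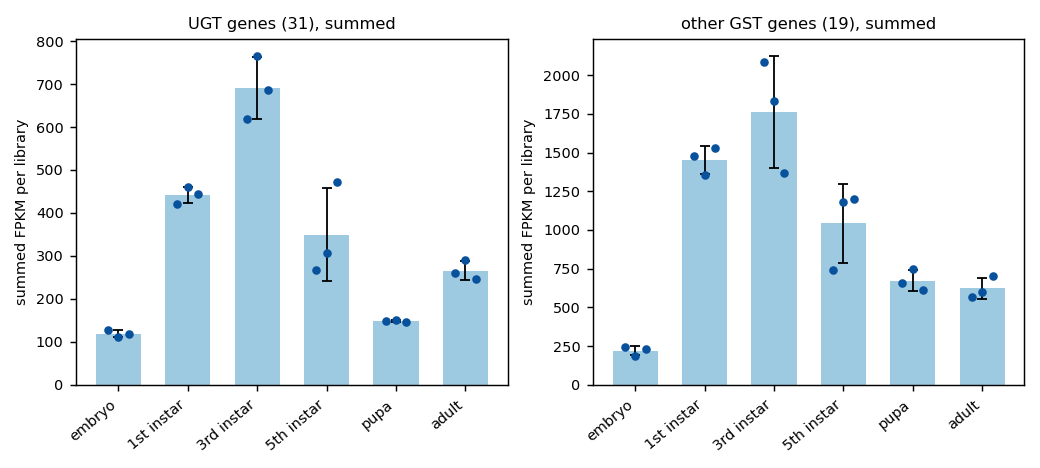
Summed FPKM of the 31 UGT genes (left) and of the 19 other GST genes (right) in each whole-animal library, by stage. Bars are means of 3 libraries, error bars are SD and points are the libraries. Both sums of deposited FPKM are lowest in embryos, at 119 and 221, and highest in the 3rd instar, at 691 and 1762, whereas scaled by recovered fragments the UGT sum is lowest in pupae and the GST sum highest in the 1st instar.

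LOC114359747 carried much of the GST sum, with 47.1, 45.5 and 54.2 FPKM in embryos and 829.7, 689 and 883 in 1st instar larvae. It was at 1445, 1172 and 834 FPKM in 3rd instar larvae, 371, 719.7 and 789.7 in 5th instar larvae, 252, 289 and 242 in pupae and 233, 283 and 394 in adults. The 1st instar was above the embryo by a log2 fold change of 4.0 (SE 0.15, adjusted p = 1.08e-06), and pupae were below the 5th instar by a log2 fold change of -1.19 (SE 0.30, adjusted p = 0.0267). The pupal difference was -0.27 (adjusted p = 0.367) when scaled by recovered fragments, and its adjusted p lay between 0.0698 and 0.0826 without any 1 pupa library or 5th instar replicates 2 or 3. The 1st instar overlapped the 3rd and the 5th, which did not overlap each other. The UGT LOC114353020 followed a like course, at 6.25, 5.25 and 7.997 FPKM in embryos, 110.3, 102 and 132 in 1st instar larvae, 90.98, 92.8 and 131 in 3rd instar larvae, 40.6, 45.6 and 48.9 in 5th instar larvae, 5.87, 4.13 and 6.10 in pupae and 23.1, 17.6 and 13.3 in adults. LOC114350341, in contrast, led the UGTs of embryos, pupae and adults and varied less between stages. It was at 36.3, 18.4 and 22.9 FPKM in embryos, 39.9, 51.04 and 28.8 in 3rd instar larvae, 42.3, 33.3 and 33.4 in pupae and 50.9, 80.6 and 78.3 in adults. LOC114355002 lay between 109 and 161 FPKM from the 1st instar to the pupa. It was lower in embryos, at 66.1, 45.6 and 51.5 FPKM, and in adults, at 71.1, 65.7 and 58.7 FPKM.

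Of 30 members that could be tested between embryos and each later stage, 10 were lower in embryos in every test, against 13.1% of all genes, and 1 was higher in every test, against 12.8%. The 10 were 3 UGTs and 7 GSTs, among them LOC114359748, at 8.23, 1.97 and 2.35 FPKM in embryos and at least 27.6 FPKM in every later library, and the omega class LOC114358125, which did not pass 0.139 FPKM in embryos. Of the 10, 5 remained when scaled by recovered fragments, all GSTs and among them these 2, and none of the UGTs was then lower in every test. The exception was LOC114364900, named GST LANCL1-like, whose vertebrate namesake is a glutathione-binding protein related to lantibiotic cyclases rather than to the classical GSTs. It was at 25.6, 17.4 and 21.02 FPKM in embryos, 6.20, 4.14 and 4.29 in 1st instar larvae, 2.53, 6.18 and 0.841 in 3rd instar larvae, 10.2, 9.06 and 6.21 in 5th instar larvae, 8.61, 9.34 and 5.81 in pupae and 11.98, 10.2 and 6.72 in adults. Embryo libraries lay above all others, and the smallest difference was a log2 fold change of 1.09 (SE 0.25, adjusted p = 0.00494), against adults. Without embryo replicate 1 it was 0.95 and without adult replicate 3 it was 0.87, under the fold threshold, so that without either library no member was left in this set.

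Between larval instars fewer members passed the test. The 3rd instar over the 1st gave 8 higher and 2 lower of 44, with a median of 0.40 against -0.01 for all genes, of which 14.4% were called, 7.72% higher and 6.7% lower. Scaled by recovered fragments, these were 4 and 3, and without 1st instar replicate 1, 1st instar replicate 3 or 3rd instar replicate 3 the calls fell to 4, 6 and 6 in all. The largest of the 8 was LOC114365860, the fat body UGT, at 60.8, 85.6 and 90.02 FPKM in 3rd instar larvae and 3.92, 3.28 and 1.83 in 1st instar larvae, a log2 fold change of 4.33 (SE 0.28, adjusted p = 0.000412). In the 5th instar over the 3rd, 4 members were higher and 12 lower of 47, with a median of -0.70 against 0.05, where 10.9% of all genes were called, 6.81% higher and 4.08% lower. Of the 12, 10 were UGTs, and with limma-trend 0 UGTs were higher (0 at an unadjusted p under 0.05, and 0 with limma-voom). The 16 calls of both directions were 23 with all libraries in 1 fit, 10 with no filter, 8 with limma-voom on recovered fragments, and 7, 7, 6 and 8 without 3rd instar replicate 3 and 5th instar replicates 1, 2 and 3.

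The 3rd instar was higher than each other stage for 5 of 44 members, against 1.46% of all genes. Of these 5, 4 had their highest tissue mean in fat body, and 3 were among the 9 members higher in fat body than in each other tissue. The fat body marker list summed to between 32.4 and 92.3 FPKM in 1st instar libraries and 3213 and 6457 FPKM in 3rd instar libraries. It summed to between 1488 and 10951 FPKM in 5th instar libraries and 39.7 and 61.4 FPKM in pupal libraries. In this list the silk protein fibrohexamerin averaged 46.3 FPKM in the 1st instar, 130 in the 3rd, 588 in the 5th and 15.2 in pupae. A vicilin-like gene matched by letters (LOC114362344) averaged 24.5 FPKM in pupae. Arylphorin alpha (LOC114359093) averaged 4.22 FPKM in the 1st instar, 4039 in the 3rd, 2220 in the 5th and 4.32 in pupae. The part of fat body content in these differences was not tested. LOC114360715 was at 21.2, 32.04 and 48.5 FPKM in 3rd instar larvae, against 2.72, 4.67 and 2.29 in 1st instar larvae and 0.555, 1.94 and 2.81 in 5th instar larvae, and at most 0.482 FPKM in embryos, pupae and adults. It passed in every alternative, with a log2 fold change of 3.01 (SE 0.36, adjusted p = 0.00267), against the 1st instar. LOC114358977 (2B1-like) was at 2.57, 14.5 and 15.5 FPKM in 3rd instar larvae, 1.16 FPKM or less in every other stage, and its smallest difference was a log2 fold change of 2.41 (SE 0.58, adjusted p = 0.0112), against adults. The other 3 were LOC114357101, LOC114357099 and the GST LOC114360772. The set fell to 2 members with no filter, when scaled by recovered fragments, with limma-voom and without 3rd instar replicate 3 or 5th instar replicate 2, and to 3 with a pseudocount of 0.1 and without 1st instar replicates 1 or 3 or 5th instar replicate 1. The 2 weakest were LOC114357101, whose adjusted p of 0.0377 against the 1st instar lay between 0.0847 and 0.137 without 1st instar replicates 1 or 3 or 3rd instar replicates 2 or 3, and LOC114360772, whose adjusted p of 0.0382 against the 5th instar lay between 0.107 and 0.133 without 3rd instar replicates 1 or 3 or 5th instar replicates 1 or 2.

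The 3rd instar pools also differed among themselves in the members of the tissue sets. The midgut UGT LOC114366667 was at 23.9, 146 and 21.4 FPKM in replicates 1, 2 and 3, and 8 of the 10 members of the midgut set were highest in replicate 2. The midgut marker list summed to 363, 1451 and 235 FPKM in the same libraries. Of the 9 members of the fat body set, 5 were highest in 3rd instar replicate 3, where the fat body list summed to 4173 FPKM, against 3213 and 6457 FPKM in replicates 1 and 2. In the 5th instar 7 of the midgut 10 were highest in replicate 2 and 0 in replicate 1, whereas the midgut list summed to 1187, 1219 and 766 FPKM, and 7 of the 9 fat body members were highest in replicate 3, where the fat body list summed to 10951 FPKM, against 1488 and 2753 FPKM in replicates 1 and 2. The part of tissue content in the differences between pools and between stages was not tested.

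**Figure D5:**
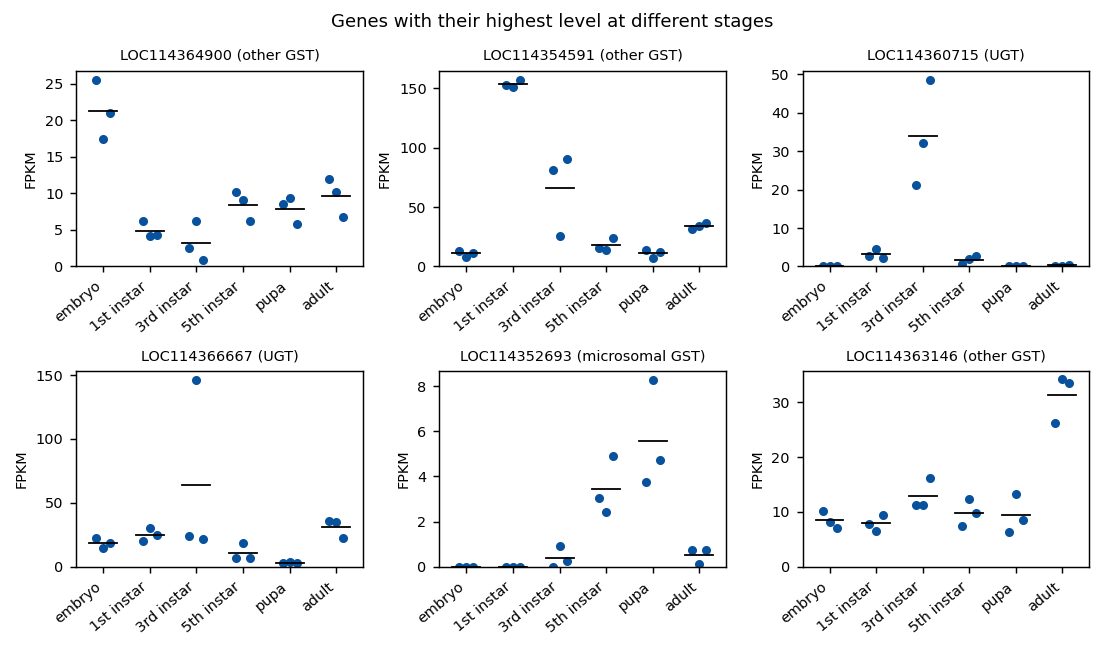
FPKM of 6 genes in each whole-animal library by stage, with 1 point per library and a line at the mean. The LANCL1-like gene LOC114364900 is highest in embryos, LOC114354591 in the 1st instar, LOC114360715 in the 3rd instar, the microsomal LOC114352693 in the 5th instar and pupa, and LOC114363146 in adults. The midgut UGT LOC114366667 has one 3rd instar library at 146 FPKM and the others at 23.9 and 21.4 FPKM.

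Pupae over 5th instar larvae gave 1 member higher and 17 lower of 40, with a median of -0.57 against 0.03 for all genes, of which 20.2% were called, 7.82% higher and 12.4% lower. With scaling by recovered fragments the split was 8 higher and 10 lower. Of the 17 lower members, 12 were UGTs, of 20 UGTs tested. LOC114353020 fell to a mean of 5.37 FPKM in pupae, against 45.04 FPKM in the 5th instar. Lower in pupae than in each other stage were 2 of 34 members, LOC114358489 and the midgut UGT LOC114366667, against 0.342% of all genes. LOC114358489 remained on the scale of recovered fragments and LOC114366667 did not, and the set held 1 with no filter, with all libraries in 1 fit and without 5th instar replicate 2 or any 1 pupa library. LOC114366667 was at 3.25, 3.54 and 3.09 FPKM in pupae, against 7.01, 18.4 and 7.07 in 5th instar larvae and 35.99, 35.4 and 22.5 in adults. With limma-trend 0 of 40 members were higher in the 5th instar than in each other stage, against 0.641% of all genes, and 0 of 34 were higher in the pupa, against 2.33%. These counts were 0 and 1 at an unadjusted p under 0.05, and limma-voom gave 0 and 0. Scaled by recovered fragments, the pupal set held 3.

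The 5th instar and the pupa nevertheless held nearly all the signal of a pair of microsomal GSTs. LOC114352693 and LOC114352694 lie within 1699 bases of scaffold NW_021131655.1 (362584 to 364282, minus strand). LOC114352693 was at 3.04, 2.45 and 4.89 FPKM in 5th instar larvae and 3.77, 8.26 and 4.71 in pupae, and LOC114352694 at 4.97, 3.55 and 1.92 in 5th instar larvae and 2.43, 2.82 and 2.46 in pupae. Both were listed at 0 in all embryo, 1st instar, midgut, silk gland and hemolymph libraries, and no other library passed 1.29 FPKM. In the 5th instar over the 3rd, LOC114352693 had a log2 fold change of 1.69 (SE 0.34, adjusted p = 0.0239). The adjusted p was 0.109 with limma-voom, 0.0669 with a pseudocount of 0.1 and between 0.052 and 0.0834 without 3rd instar replicates 1 or 3 or any single 5th instar library. The most fragments behind one of these values were 113. The 2 models are short, at 578 and 420 bases, and as near neighbours may share reads. The third microsomal GST, LOC114362834, was at 5.94, 2.64 and 2.48 FPKM in embryos, 111, 179 and 109 in 3rd instar larvae and 26.2, 29.8 and 32.3 in adults.

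Another pair that differed between the 5th and 3rd instars was LOC114351143 (GST 1-like) and LOC114351144 (GST E14-like), which share 3201 bases on opposite strands. In Drosophila the namesake of E14 is an epsilon class GST required for ecdysteroid synthesis. LOC114351144 was at 0.740, 0.441 and 1.55 FPKM in embryos, 1.95, 2.09 and 3.61 in 1st instar larvae, 2.32, 1.42 and 1.64 in 3rd instar larvae, 4.76, 4.32 and 5.26 in 5th instar larvae, 1.72, 1.64 and 0.958 in pupae and 11.9, 7.02 and 3.94 in adults. It did not pass 0.576 FPKM in a tissue library. LOC114351143 was at 0.0402, 0.124 and 0.117 FPKM in embryos, 0.503, 0.246 and 0.0864 in 1st instar larvae, 0.390, 0.949 and 0.826 in 3rd instar larvae, 5.10, 5.08 and 5.40 in 5th instar larvae, 8.92, 10.5 and 8.62 in pupae and 3.02, 3.13 and 5.07 in adults. The 5th instar exceeded the 3rd for both, by a log2 fold change of 1.86 (SE 0.23, adjusted p = 0.00506) for LOC114351143 and a log2 fold change of 1.06 (SE 0.23, adjusted p = 0.033) for LOC114351144. For LOC114351144 the adjusted p was 0.103 with limma-voom, 0.0701 with no filter and between 0.0681 and 0.126 without 3rd instar replicates 2 or 3 or any single 5th instar library. Since strand was not known their reads cannot be told apart in the shared stretch.

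Adults over pupae gave 10 members higher and 6 lower of 37, with a median of 0.27 against -0.07 for all genes, of which 46.9% were called, 21.9% higher and 25% lower. Scaled by recovered fragments, it gave 6 higher and 11 lower. Of 33 members, 2 were higher in adults than in each other stage, against 7.93% of all genes. LOC114357737 (2B4-like, in the run of 4 UGTs) was at 6.55, 2.07 and 3.09 FPKM in adults and at 0.688, 0.410 and 0 in 1st instar larvae, and at most 0.0801 FPKM in the other stages, with a log2 fold change of 1.77 (SE 0.37, adjusted p = 0.00405), against the 1st instar. No tissue of the larva passed 0.373 FPKM for this gene. LOC114363146 (GST 1-like) was at 26.1, 34.3 and 33.4 FPKM in adults, above all other stages, the highest of which was 16.2 FPKM in the 3rd instar, with a log2 fold change of 1.23 (SE 0.25, adjusted p = 0.00558). The adult set held 1 member when scaled by recovered fragments.

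In the 1st instar 1 of 41 members was higher than in each other stage, against 3.83% of all genes. This was LOC114360811, the silk gland GST, at 22.96, 16.4 and 23.1 FPKM in 1st instar larvae and 2.97, 12.5 and 9.84 in adults, with a log2 fold change of 1.37 (SE 0.44, adjusted p = 0.0278), against adults. Without 1st instar replicates 1 or 3 its adjusted p was 0.089 and 0.0863, and without adult replicate 1 its log2 fold change was 0.84. LOC114354591 (GST 1-like, named after its values were seen) also had its highest stage mean in the 1st instar, at 153, 151 and 157 FPKM, against 13.4, 8.20 and 11.5 in embryos and 15.3, 13.7 and 24.2 in 5th instar larvae. The 3rd instar, at 81.3, 25.7 and 90.7 FPKM, did not overlap it but missed the threshold, with a log2 fold change of -1.4 (SE 0.47, adjusted p = 0.0934). It passed with all libraries in 1 fit (adjusted p = 0.016) and when scaled by recovered fragments (adjusted p = 0.0307). In the tissues of the 3rd instar this gene did not pass 19.3 FPKM, against 81.3, 25.7 and 90.7 FPKM in the whole larvae of that instar.

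Class-named members without a tissue of their own were flatter. The theta class LOC114357527 was at 43.8, 57.3 and 43.7 FPKM in midgut, 19.1, 37.4 and 30.3 in fat body, 15.1, 13.8 and 14.1 in silk gland and 22.98, 21.1 and 24.8 in hemolymph. Midgut lay above the rest and was called over hemolymph and silk gland but not over fat body, with a log2 fold change of 0.76 (SE 0.28, adjusted p = 0.068). That difference was 1.43 (adjusted p = 0.003) when scaled by recovered fragments. LOC114360536, named for a GST C-terminal domain alone, was between 1.61 and 6.96 FPKM in the tissue libraries and between 3.72 and 10.9 FPKM in the whole animals. At the low end, LOC114352252 (UGT 3A1-like) had at most 9 fragments, in embryos, and LOC114364484 (GST 1-like) at most 6, so nothing can be said of their pattern at this depth. Both were named after their values were seen. The 13 members not described singly had their highest group means between 1.27 FPKM (LOC114357736, in the 1st instar) and 36.9 FPKM (LOC114350074, in the 3rd instar).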

How the data were processed

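Polyadenylated RNA of 30 libraries was sequenced as read pairs. According to the methods, fastp cleaned the reads, HISAT2 placed them on the Asian corn borer genome (build ASM419383v1) and RSEM gave the expression levels, all run by the authors. The submitters' processing notes name HISAT2 2.0.5 and, besides, a build of another species, which the scaffold names in the table do not bear out. The deposited table names no unit. Its values were read as FPKM with a scaling between libraries that the sources used here do not describe, since, multiplied by gene length, 100.0% of the values up to 200 fragments were whole multiples of 1 amount per library within 0.02, which gave back between 10908503 and 17774377 fragments per library. RSEM estimates need not be whole, so how the authors made these deposited FPKM is not settled.

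The members and lists were chosen with earlier results of these data known. The 11 comparisons were 6 pairs of tissues and 5 pairs of neighbouring stages, and the other pairs of stages were fitted only for the sets of members called against every other stage. Each pair was fitted on its own 6 libraries with limma-trend on log2(FPKM + 1), over all genes that reached 1 FPKM in 3 or more of them (2 where a library was left out), with Benjamini-Hochberg adjustment over all genes tested. Sums over members carry no test. Alternatives were a pseudocount of 0.1, no filter, all libraries of the stages or of the tissues in 1 fit, a replicate block, scaling by recovered fragments, limma-voom on recovered fragments and leaving out each library. Pathway and marker lists were matched by the letters of gene descriptions. Named genes were the 2 highest UGTs and GSTs of each group, up to 4 members of each set by their smallest fold change, members with a class name, those on the scaffolds richest in each family, and pathway genes higher in 1 tissue than in every other. A few more are marked in the text as named after their values were seen.

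Replicate numbers were checked for pairing by correlating deviations from group means. Between the 3rd and 1st instars the correlations were 0.34, 0.62 and 0.14, and in no other pair of groups did all 3 exceed 0.1. Nothing states that the pools of these instars were paired, and such correlations cannot show it. The fits were also run on simulated data with a fixed spread and a known scale of each library. That run cannot show how the calls fare with the scaling and the spread between pools found here. Fits were made with limma 3.58.1 in R 4.3.3, and tables and plots with Python 3.11.15, pandas 2.3.3, numpy 2.4.6 and matplotlib 3.10.9.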

Additional observations from a re-analysis of the deposited data

Results flagged for a closer look

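A signal was seen in genes outside the name rule. The deposited table also carries a column of family names, in which 35 annotated genes are marked UDPGT, the family of UGTs. Of these, 31 are members and 4 are not, since their descriptions hold none of the words of the rule. They were found after their values were seen and enter no count of the report. LOC114352649 averaged 284 ± 201 FPKM (SD, n = 3) in midgut and 245 FPKM in fat body, with up to 26962 fragments in a library, and lies 3657 bases from LOC114352631. LOC114350091 averaged 57.73 FPKM in hemolymph and 55.95 FPKM in silk gland, with up to 5963 fragments, and lies 78 bases from LOC114350056. LOC114357095 averaged 13.14 FPKM in midgut, with up to 419 fragments, and overlaps LOC114357080 in the run of 6 UGTs. LOC114365436 averaged 2.574 FPKM in embryos and 2.50 FPKM in adults, with up to 259 fragments. All 4 lay above the 3 fragments that a count of 0 allows.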

How the results depend on the processing

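Of 40 called differences of single genes, 7 of them recomputed after seeing the data, 26 stayed called in every alternative run on them, and of 480 recomputed values 419 stayed called in the same direction, 60 fell short of the threshold and 1 reversed. The reversed one was LOC114357099 in fat body against hemolymph, at -0.0495 when scaled by recovered fragments and 1.5 as reported. That scaling also moved the count of called members in silk gland over hemolymph to 27 from 13, and the sets of members higher than in every other group to 6 from 2 in hemolymph, 2 from 1 in embryos, 2 from 5 in the 3rd instar, 3 from 0 in pupae and 1 from 2 in adults. The sets lower than in every other group, whose alternatives were chosen after seeing the data, became 8 from 4 in silk gland, 2 from 4 in hemolymph and 5 from 10 in embryos with that scaling, and 1 from 2 in pupae with no filter and with all libraries in 1 fit. The 1st instar set was 2 in place of 1 with that scaling, a pseudocount of 0.1, all libraries in 1 fit and limma-voom. The 3rd instar set was 3 with a pseudocount of 0.1 and 2 with no filter or limma-voom. In the 5th over the 3rd instar 16 members became 10 with no filter, 10 with a replicate block and 8 with limma-voom. The cause of these changes was not tested. Over all genes, scaling by recovered fragments called 7794 in place of 4121 in silk gland over hemolymph, 7196 in place of 4062 in fat body over hemolymph and 5403 in place of 2450 in pupae over the 5th instar, and in the 5th over the 3rd instar 1267 became 2057 with all libraries in 1 fit and 687 with limma-voom. Leaving out 1 library gave between 4 and 11 members in the 3rd over the 1st instar (10 with all), between 6 and 15 in the 5th over the 3rd (16), between 1 and 3 for the hemolymph set (2), between 0 and 1 for embryos (1), between 0 and 2 for the 1st instar (1) between 2 and 5 for the 3rd (5) and between 1 and 3 for members lower in pupae (2). The replicate block rested on shared numbers alone, and gave 13 in place of 10 in the 3rd over the 1st instar. It moved no count by over 1.5 times except that of the 5th over the 3rd instar. Of the single genes it took 3 calls between the 3rd and 5th instars, with limma adjusted p = 0.0516 for LOC114360772, 0.0588 for LOC114352693 and 0.0861 for LOC114351144. The filter keeps genes under about 1 FPKM out of the tests, so little can be said of the members with few fragments, and 3 libraries per group leave differences near a log2 fold change of 1 dependent on single libraries.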
